A study of Mus musculus with 2 samples.

Results

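Late blood neutrophils without a counted transcript of 3 specific granule genes were the subject here. They were chosen by label and by measured counts, as the cells that carried the authors' label Neutrophil and held 0 raw UMIs (counted transcript molecules) of Camp, Ltf and Ngp. The rule found 2123 cells of the 3825 labelled Neutrophil and the 5793 in all, 767 in the young library and 1356 in the aged one. After cells with the highest doublet scores were taken out, 2099 remained, 760 young and 1339 aged. The myeloid cells came from blood of C57BL/6 mice 24 h after transient proximal middle cerebral artery occlusion, a model of ischemic stroke, and the droplet libraries were made with the 10x 3′ kit. The young library came from mice of 2 to 4 months and the aged library from mice of 18 to 24 months. All mice in both groups had the occlusion, and both CD11b+ Ly6G- and CD11b+ Ly6G+ sorted cells were taken. Neither the number of mice behind each library nor the mixing of the sorted fractions is stated in the labels.

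Neutrophils are short-lived phagocytes that mature in the bone marrow and build their granules in a fixed order. Genes of the specific granules, such as Camp (the antimicrobial peptide cathelicidin), Ltf (lactoferrin, an iron-binding protein) and Ngp (neutrophilic granule protein), are transcribed at the myelocyte and metamyelocyte stages and are shut off before release. Gelatinase granules and secretory vesicles form later, and mature cells carry abundant S100a8 and S100a9, the chemokine receptor Cxcr2 and the G-CSF receptor Csf3r. Blood after an acute injury commonly holds cells of several stages of this sequence.

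With 1 library per age there is no replicate, no test was made, and every statement on age compares these 2 libraries. Intervals in brackets are 95% and hold counting error only. The late neutrophils held 1271067 UMIs in the young library and 2529474 in the aged one, with medians of 1558.5 and 1755 UMIs and 555.5 and 522 genes per cell. Thinned to 500 UMIs, the median cell showed 230.5 genes in the young library and 202 in the aged one. The mitochondrial share was 0.481% and 0.362%. The 2 libraries shared 12 cell barcodes, which touched 8 of these cells.

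By the rule, 67.1% (64.3% to 69.8%) of 1133 young neutrophils and 51.0% (49.1% to 52.9%) of 2626 aged neutrophils were late. These shares describe the rule and the depth. Thinning every cell to 500 UMIs gave 83.6% and 76.5%. Ngp decided membership almost alone, since 98.4% of the 373 young and 97.1% of the 1287 aged cells outside the rule held an Ngp UMI, against 27 and 155 cells with Camp and 2 and 22 cells with Ltf. The cells outside the rule were deeper, with medians of 1903 and 2074 UMIs. Of them 47.7% in the young library and 42.3% in the aged one held exactly 1 UMI of the 3 genes. A UMI of the 3 genes was also found in 2.38% of 84 young and 9.09% of 99 aged NK and B cells, which do not make these transcripts, at medians of 2077.5 and 2654 UMIs. The part of free RNA in the cells with 1 such UMI was not tested.

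The label was checked against its markers, and late neutrophils stood above every other labelled population in both libraries for all 6. S100a8 and S100a9, the subunits of calprotectin, reached 158234 and 107763 CPM (counts scaled to a total of 1000000 UMIs) in the young library and 195846 and 145075 CPM in the aged one. Together they held 26.6% and 34.1% of all UMIs of these cells, and with Retnlg, a resistin-like secreted protein, 30.5% and 39.7%. Retnlg stood at 39210.4 CPM in the young library and 56279.3 CPM in the aged one. Cxcr2, the receptor that draws neutrophils to CXC chemokines, stood at 859 and 848 CPM, and Csf3r at 1123 and 684 CPM. Il1b, the inflammatory cytokine interleukin 1 beta, stood at 2282 CPM in the young library and 1299.9 CPM in the aged one. All 6 were therefore present in both libraries, with the first 3 higher and Il1b and Csf3r lower in the aged one.

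Ratios to the highest other population leave out the cells labelled Eryth-Neutro, 13 young and 15 aged, whose label names a second cell type beside the neutrophil. Against those cells late neutrophils had 23.1-fold and 3.96-fold the S100a8 and 15.6-fold and 3.25-fold the Retnlg CPM. The other ratios are to the highest of the remaining populations, which differed by gene and library. For S100a8 the ratio was 9.82 in the young library and 8.65 in the aged one, over monocytes in both. For S100a9 it was 19.7 over monocytes in the young library and 12.4 over NK cells in the aged one. For Retnlg it was 21.9 and 12.5, over NK cells in both. Csf3r stood 11.3-fold above monocytes in the young library. In the aged one it stood 7.27-fold (3.82 to 15.9) above the cells labelled Mast cell, which held 9 UMIs. Il1b stood 20.2-fold above monocytes in the young library and 7.24-fold (5.46 to 9.81) above B cells, with 49 UMIs, in the aged one. Cxcr2 was 28.8-fold (7.96 to 238) above in the young library, where the highest other population held only 2 UMIs, and 3.38-fold above in the aged library, where the 42 cells labelled Mast cell held 24 UMIs. S100a8 was also found in 91.7% of young and 92.9% of aged NK and B cells thinned to 500 UMIs, so a share of cells says little for so abundant a transcript. For Cxcr2 the share at 500 UMIs was 34.6% and 35.3% of late neutrophils against 2.38% and 3.03% of NK and B cells. For Il1b it was 61.4% and 43.3%, against 0 of the 84 young NK and B cells and 4.04% of the aged ones. The 0 allows up to 3.57%, taken as 3 of 84 cells. The populations were labelled by the authors from these same cells, so these contrasts describe the label.

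**Figure D1:**
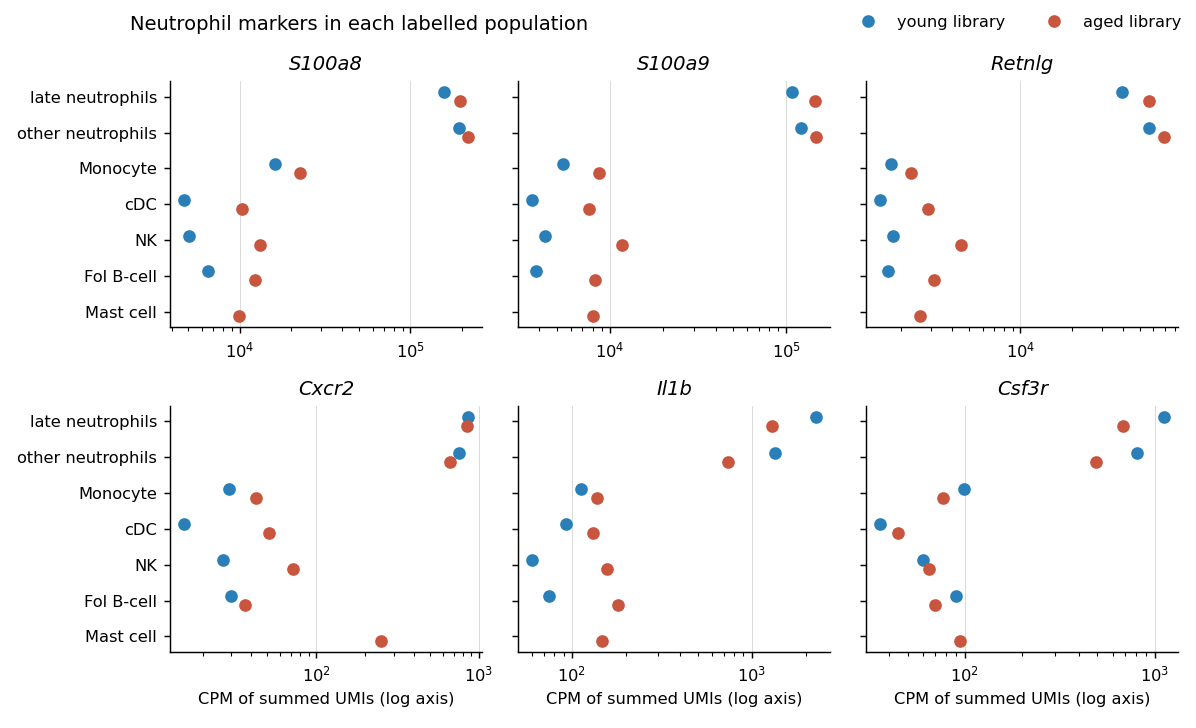
CPM of summed UMIs (log axis) of the 6 markers in each labelled population, with 1 point per library, blue for young and red for aged. Late neutrophils lie to the right of all populations that are not neutrophils in every panel, and the young library has no cells labelled Mast cell.

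Among 1873 genes with 50 UMIs in each library, 121 (6.46%) were at least 2-fold above every other population in both, again without Eryth-Neutro. The 15 highest by the lower of their 2 ratios held 5 of the markers. These genes set neutrophils apart from the other populations, and 0 of the 15 were 2-fold higher in late neutrophils than in the neutrophils outside the rule in both libraries. Late over outside, their ratios ran from 0.665 to 1.76, and 6 of them were higher outside the rule in both libraries. Stfa2l1, a stefin of the cysteine protease inhibitor family, led at 14.3-fold above B cells in the aged library. In the young library B cells held 0 UMIs of it in 14 cells, so late neutrophils, at 1123 CPM, were at least 25.1-fold higher. Arg2, the mitochondrial arginase, was at least 13.7-fold higher in the young library, where NK cells were at 0 UMIs, and 14.3-fold in the aged one. The gelatinase gene Mmp9 was 20.3-fold (9.83 to 50.6) and 11.5-fold (6.73 to 21.7) above NK cells, which held only 7 and 13 UMIs of it. It stood at 950.4 and 1075 CPM, with 1181 and 1229 CPM in the neutrophils outside the rule. The lectin receptor gene Clec4d was 9.55-fold and 7.99-fold above monocytes. Wfdc21, a secreted protein with a whey acidic protein domain, was 7.65-fold and 7.6-fold above monocytes.

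Ly6g, which codes for the surface antigen used in the sort, was 7.77-fold (2.64 to 37.8) above B cells, with 3 UMIs, in the young library and 12.7-fold above NK cells in the aged one. The iron exporter gene Slc40a1 was 14.4-fold above in the young library and 7.72-fold (2.62 to 37.6) in the aged one, where NK cells held only 3 UMIs of it. The cystine transporter gene Slc7a11, at 371 and 334 CPM, was at least 8.28-fold higher in the young library. In the aged one it was 7.77-fold (3.56 to 21.2) above NK cells, which held 6 UMIs. Il1f9, an interleukin 1 family cytokine also known as interleukin 36 gamma, was at least 7.6-fold and 18.6-fold higher. The chitinase-like Chil1 was at least 7.58-fold and at least 8.85-fold higher. These lower bounds rest on the floor of 3 counts in small populations. For the aged bound of Chil1 that was the cells labelled Mast cell, with 0 UMIs.

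The proximal promoters of the 3 most abundant marker genes are shown beside that of Ngp, the gene that decided membership. Each is the 250 bases before the transcription start from the RefSeq promoter table (GRCm38.p6), 5′ to 3′ on the gene's strand. Capitals mark letters that match TTGCNNAA, a core bound by C/EBP factors, or GAGGAA, a core bound by PU.1, on either strand. The windows lie at chr3:90668821-90669070 (plus strand) for S100a8, chr3:90695722-90695971 (minus strand) for S100a9, chr16:48872358-48872607 (plus strand) for Retnlg and chr9:110419558-110419807 (plus strand) for Ngp. S100a8 and S100a9 are neighbours on chromosome 3, and Camp, Ltf and Ngp all lie on chromosome 9. In the GENCODE M21 annotation the gene models of S100a8 and Ngp begin further upstream, inside these windows.
S100a8: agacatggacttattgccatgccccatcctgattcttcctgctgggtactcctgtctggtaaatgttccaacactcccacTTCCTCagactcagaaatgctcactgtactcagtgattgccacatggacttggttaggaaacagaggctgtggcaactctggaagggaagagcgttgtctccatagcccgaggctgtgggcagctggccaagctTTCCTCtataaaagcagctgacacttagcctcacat
S100a9: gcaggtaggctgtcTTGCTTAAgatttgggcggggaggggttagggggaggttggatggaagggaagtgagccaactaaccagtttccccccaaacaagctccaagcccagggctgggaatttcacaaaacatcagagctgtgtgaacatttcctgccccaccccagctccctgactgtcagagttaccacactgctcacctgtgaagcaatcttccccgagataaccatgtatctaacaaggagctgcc
Retnlg: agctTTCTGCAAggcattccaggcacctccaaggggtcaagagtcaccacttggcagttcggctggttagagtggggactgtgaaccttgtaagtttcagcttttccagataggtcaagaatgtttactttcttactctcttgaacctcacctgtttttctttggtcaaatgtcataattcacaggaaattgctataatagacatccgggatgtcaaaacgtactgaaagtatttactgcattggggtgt
Ngp: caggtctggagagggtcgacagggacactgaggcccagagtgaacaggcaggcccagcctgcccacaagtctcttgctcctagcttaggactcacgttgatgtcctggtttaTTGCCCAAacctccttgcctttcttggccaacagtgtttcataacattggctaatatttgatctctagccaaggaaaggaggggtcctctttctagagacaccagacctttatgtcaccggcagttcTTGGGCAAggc
Ngp held 2 matches to TTGCNNAA, S100a9 and Retnlg 1 each and S100a8 none, while S100a8 held 2 matches to GAGGAA and the others none. Of the 16 identity and marker genes, 12 were in the table with 13 promoters, and 4 of these (30.8%) held TTGCNNAA against 9.56% of all 32851 promoters and 7.76% of the 11244 promoters of genes in the count table. GAGGAA was in 8 of the 13 (61.5%) against 23.3% and 23.1%. A match describes letters in this window and shows no binding.

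The question of the study design was how blood myeloid cells of aged and young mice differ after stroke. The late neutrophils allow it to be asked with cells that held a UMI of Camp, Ltf or Ngp left out. Other granule genes were still counted in them. Lcn2 stood at 5686 CPM in the young library and 7089 CPM in the aged one, and Mmp8 at 801 and 1262 CPM. In late neutrophils 37 of 3519 genes with 50 UMIs (1.05%) were at least 2-fold higher and 182 (5.17%) at least 2-fold lower in the aged library. The median log2 ratio over these genes was −0.26. CPM are shares of a total of which S100a8, S100a9 and Retnlg held 30.5% and 39.7%. TMM scaling, which sets the bulk of genes level, multiplied every ratio by 1.25, moved the median to 0.06 and gave 78 higher and 75 lower. With those 3 genes left out of the total the split was 56 and 105, with ratios centred on their median 64 and 90, and 29 and 214 with a total that lacks ribosomal protein and mitochondrial genes. Ratios between 0.802 and 1 in the text therefore lie above 1 with TMM. Without the cells that share a barcode the counts were 37 and 185, and without cells holding 3 UMIs of another cell type's markers 30 (1.12%) and 145 (5.39%) of the 2689 genes then measured. The latter filter left 448 young and 982 aged cells.

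Genes were ranked by the interval bound nearest 1, and the 12 highest ratios are given first. Ifitm6, a member of the interferon-induced transmembrane family, stood at 743.5 CPM in the young library and 2616 CPM in the aged one, a ratio of 3.52 (3.29 to 3.77). Il1r2 codes for a decoy receptor of interleukin 1 and stood at 531 and 1279.7 CPM, for a ratio of 2.41 (2.22 to 2.62). It was found in 20.5% of young and 43.7% of aged late neutrophils at 500 UMIs, against 2.38% and 4.04% of NK and B cells. Ltb4r1, the leukotriene B4 receptor, stood at 129 and 309.9 CPM, for a ratio of 2.40 (2.03 to 2.86). In monocytes these 3 were also higher in the aged library, with Ifitm6 at 702.3 and 1021 CPM, Il1r2 at 114 and 364 CPM and Ltb4r1 at 126 and 262 CPM.

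Serpinb1a, an inhibitor of neutrophil serine proteases, stood at 25.2 and 93.3 CPM, for a ratio of 3.71 (2.55 to 5.54). The chemokine Cxcl3, a CXCR2 ligand, was counted 8 times in the young library and 119 times in the aged one, a ratio of 7.47 (3.67 to 17.7). Without thinning, its transcripts sat in 0.921% of young and 5.68% of aged late neutrophils. At 500 UMIs they were in 0 of the NK and B cells, so these shares are at unlike depths. The 0 allows up to 3.57% and 3.03%, taken as 3 of 84 young and 3 of 99 aged cells. Thbs1, the matrix glycoprotein thrombospondin 1, was counted 14 and 149 times, a ratio of 5.35 (3.09 to 10.0). Hist2h2aa1, a replication-dependent histone gene, had a ratio of 3.80 (2.70 to 5.47), Ggt1, the gamma-glutamyltransferase, 3.16 (2.05 to 5.09), and Cd164, a sialomucin, 2.67 (2.04 to 3.56). Hist2h2aa1 has a near-identical copy, and how reads that fit both were counted is not stated in the labels.

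The other 3 of the 12 rest on few young counts. Gpr27, an orphan G protein-coupled receptor, was counted 4 times in the young library and 58 times in the aged one, a ratio of 7.29 (2.70 to 27.6). The lipase gene Lipg was counted 6 and 63 times, a ratio of 5.28 (2.29 to 14.9). Gng11, a G protein gamma subunit that platelets also express, was counted 3 and 54 times, a ratio of 9.05 (2.93 to 45.2). Platelet markers summed to 25.2 CPM in the young library and 46.7 CPM in the aged one, with 3 and 10 cells holding 3 or more of their UMIs. Without cells that held 3 UMIs of another cell type, the log2 ratio was 3.69 for Gng11 and 2.29 for Thbs1, against 3.18 and 2.42 with them. This filter took out 312 young and 357 aged cells. Of them 122 and 253 met it by mast cell and basophil markers, nearly all Hdc, which neutrophils also express. As few met it by platelet markers, these values say little of platelets.

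Among the 12 lowest ratios, Lst1, a leukocyte transmembrane adaptor, stood at 1388 CPM in the young library and 485 CPM in the aged one, a ratio of 0.350 (0.325 to 0.376). It was found in 44.9% of young and 19.7% of aged late neutrophils at 500 UMIs, and in monocytes it stood at 906 and 522 CPM. Wdr89, a WD repeat protein, stood at 357 and 90.1 CPM, for a ratio of 0.252 (0.214 to 0.297). It was lower in aged monocytes as well, at 1530.2 and 454 CPM, and at 500 UMIs 37 of 70 young NK cells (52.9%, 40.6% to 64.9%) held it against 10 of 58 aged ones (17.2%, 8.59% to 29.4%). The resistin gene Retn stood at 101 and 35.2 CPM, for a ratio of 0.349 (0.264 to 0.462). Retnlg in the same family went the other way, at 1.44 (1.42 to 1.45).

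Gngt2, a G protein gamma subunit, had a ratio of 0.361 (0.292 to 0.446), and Prr5l, a partner of the mTORC2 kinase complex, 0.243 (0.153 to 0.379). Nap1l1, a histone chaperone, had a ratio of 0.257 (0.150 to 0.428), and Exosc5, a subunit of the RNA exosome, 0.236 (0.122 to 0.440). The iron-sulfur cluster protein gene Bola2 stood at 49.6 and 14.2 CPM and AF251705 at 111 and 34.4 CPM. Grcc10 had a ratio of 0.328 (0.254 to 0.422) and the antisense gene Slc36a3os 0.266 (0.141 to 0.484). Gzma, the granzyme of NK cells, was counted 40 times in the young library and 15 times in the aged one, a ratio of 0.188 (0.097 to 0.349), and at 500 UMIs it was found in 64 of 70 young NK cells (91.4%, 82.3% to 96.8%) and 46 of 58 aged ones (79.3%, 66.6% to 88.8%). The 10 NK cell markers together summed to 52.7 and 12.3 CPM in late neutrophils, and their part in the Gzma ratio was not tested.

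**Figure D2:**
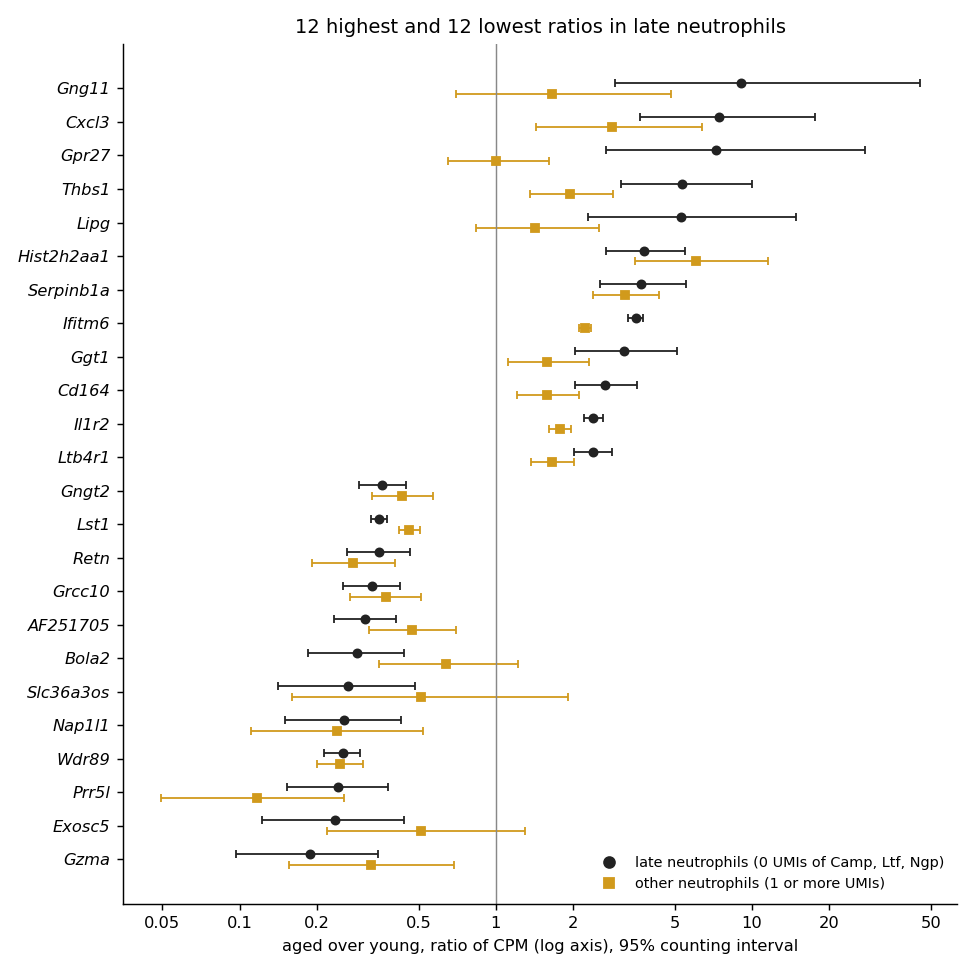
Ratio of CPM, aged over young (log axis), with 95% counting intervals for the 12 highest and 12 lowest genes, black circles for late neutrophils and yellow squares for neutrophils with 1 or more UMIs of Camp, Ltf or Ngp. Gpr27 is at 7.29 in late and at 1.01 in the other neutrophils, while Wdr89 is at 0.252 and 0.246.

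The same comparison was read with and without the cells that held a UMI of Camp, Ltf or Ngp. In all neutrophils 48 of 4742 genes (1.01%) were at least 2-fold higher and 250 (5.27%) lower. Of the 37 higher genes in late neutrophils 19 (51.4%) were also among the 48 (39.6%), and of the 182 lower genes 131 (72.0%) were among the 250 (52.4%). Only 21 of the 48 were measured in late neutrophils, so the 39.6% also counts genes that could not be called there. The 2 sets share the late neutrophils themselves. Among genes that passed 2-fold in late neutrophils alone, Prok2, a secreted prokineticin, stood at 137 and 295 CPM, for a ratio of 2.16 against 1.64 in all neutrophils. The lipid scramblase gene Plscr1 had 2.03 against 1.83, and Flot2, a membrane raft scaffold, 2.30 against 1.90. Ly6g stood at 348 and 731 CPM, 2.1 against 1.89. It is tied to the sort, whose mixing is not known. Cd14, the co-receptor for bacterial lipopolysaccharide, stood at 256 and 526 CPM, 2.06 against 1.80. These 5 were chosen after their values were seen.

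The ratios of the highest genes were larger in late neutrophils than in the cells outside the rule for 11 of the 12. These 12 were chosen by their ratios in late neutrophils, which favours larger values there. The count therefore does not compare the 2 cell sets. Ifitm6 stood at 2.23 (2.12 to 2.35) outside the rule and Il1r2 at 1.79 (1.62 to 1.97), both below their intervals in late neutrophils. Cxcl3 was at 2.85 (1.44 to 6.41), Thbs1 at 1.95 (1.36 to 2.87) and Gpr27 at 1.01 (0.649 to 1.61). Hist2h2aa1 was the exception at 6.08 (3.50 to 11.5). The difference between the ratios of the 2 cell sets was not tested. Of the 10 genes with the largest shift between all and late neutrophils, Gng11, Gpr27 and Lipg are described above and the others also rest on few UMIs. Bax, which drives apoptosis at the mitochondrion, had a ratio of 0.289 (0.155 to 0.524) in late neutrophils and 0.905 (0.521 to 1.66) in the others. Mat2a, which makes S-adenosylmethionine, had 1.29 (0.680 to 2.59) and 0.257 (0.120 to 0.548), and Ubald1 0.854 (0.478 to 1.57) and 0.216 (0.104 to 0.443). The transcriptional coactivator Ncoa1 had 2.01 (0.988 to 4.51) and 0.392 (0.205 to 0.771), and Pqbp1, a splicing factor, 0.438 (0.251 to 0.758) and 1.86 (0.884 to 4.51). Sik3, a kinase, had 1.43 and 0.393, and Gpr108 1.47 and 0.456.

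Gene lists were read at 1.5-fold among genes with 20 UMIs, where 314 of 5348 genes (5.87%) were higher and 1379 (25.8%) lower in the aged library, with a median log2 ratio of −0.28. Over 17 lists by role, 22 of 260 measured genes were higher and 61 lower, and with TMM 50 were higher and 31 lower. With TMM 13.7% of the 5348 genes were higher and 10.8% lower, and their median was 0.04. With S100a8, S100a9 and Retnlg left out of the total the lists had 37 higher and 38 lower, beside 9.8% and 14.7% of all genes, and with ratios centred on their median 45 and 32, beside 11.7% and 12.6%. The lists with a median above 0 under every scaling were the 6 markers, the S100 genes, stefins and resistins, early neutrophil genes outside the rule and gelatinase granule genes. The AP-1, NF-kappaB and ribosomal protein lists lay below 0 under every scaling.

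**Figure D3:**
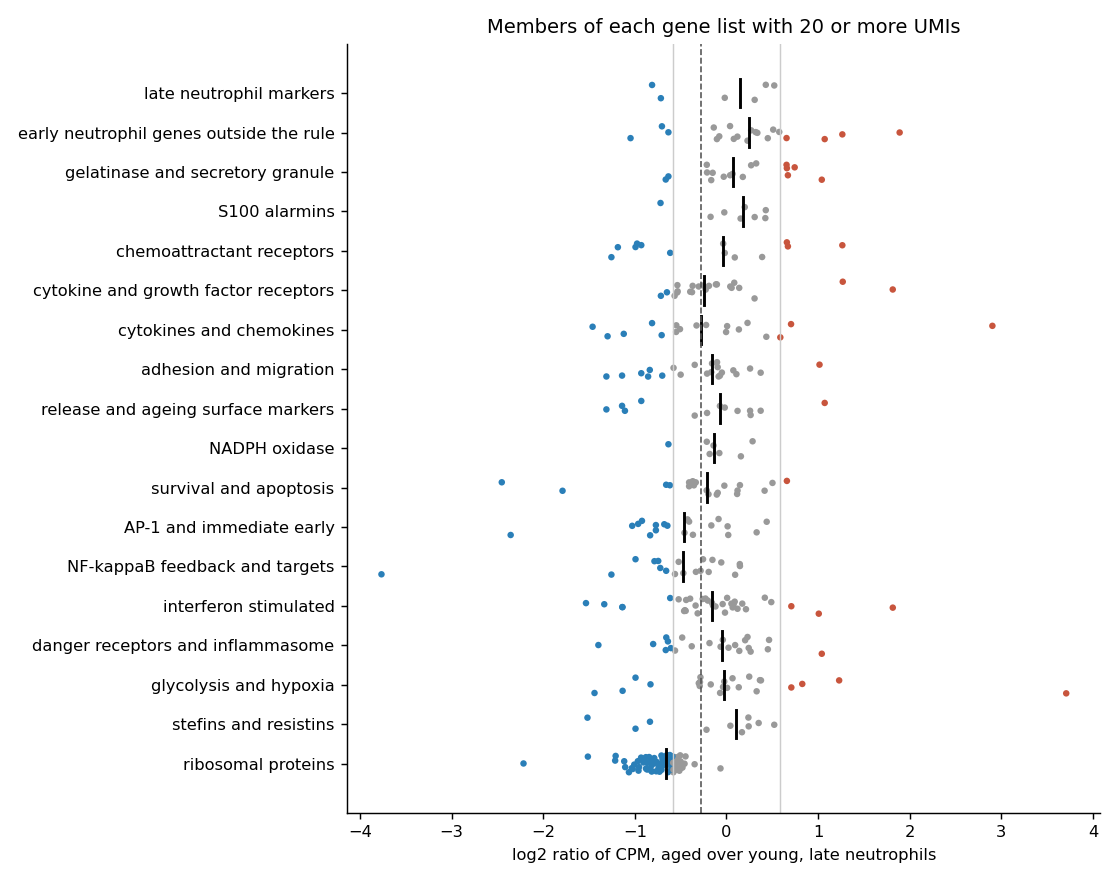
Log2 ratio of CPM, aged over young, in late neutrophils for every list member with 20 or more UMIs, with 1 point per gene, red at or above 1.5-fold, blue at or below it and grey between. Black bars mark list medians, grey lines 1.5-fold either way, and the dashed line the median of all measured genes at −0.28. The 6 markers and the S100, NADPH oxidase, AP-1, NF-kappaB, stefin and resistin, and ribosomal lists have no red point.

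Of 8 S100 genes, calcium-binding proteins that in part act as alarm signals outside the cell, 0 were 1.5-fold higher and 1 lower, with a median of 0.18. With TMM 3 were higher and 0 lower, with a median of 0.50. S100a9 had a ratio of 1.35 (1.34 to 1.35) and S100a8 1.24 (1.23 to 1.24). S100a6 had 1.34 (1.31 to 1.38), S100a11 1.15 (1.12 to 1.17), and S100a4 0.607 (0.439 to 0.842) on 72 and 87 UMIs. Of 10 stefins and resistins 0 were higher and 3 lower, with a median of 0.11, and with TMM 2 were higher and 2 lower, with a median of 0.42. Stfa2l1 stood at 1123 and 629.8 CPM, for a ratio of 0.561 (0.522 to 0.602), and the gene model Gm5483 at 956.7 and 985 CPM. Stefin genes are near-identical copies, so their counts could be split by the counting.

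Of 20 measured early neutrophil genes outside the rule, 4 were higher and 3 lower, with a median of 0.25. With TMM 10 were higher and 1 lower, with a median of 0.57. Of the 4 higher without TMM, Mmp8, the neutrophil collagenase, stood at 801 and 1262 CPM, for a ratio of 1.58 (1.47 to 1.69). Serpinb1a, Ltb4r1 and Ly6g were the others. Lcn2, the iron-scavenging lipocalin, stood at 5686 and 7089 CPM, for a ratio of 1.25 (1.21 to 1.28). Anxa1, a phospholipid-binding regulator of inflammation, had 1.26 (1.19 to 1.34). The lysozyme gene Lyz2 stood at 2628 and 1613 CPM, for a ratio of 0.614 (0.586 to 0.643), and Hmgn2, a nucleosome-binding protein, had 0.484 (0.418 to 0.560). Of the primary granule genes Mpo and Ctsg had 0 UMIs in both libraries, Elane had 0 and 2 UMIs, and Prtn3, which codes for proteinase 3, had 29 and 61 UMIs at 22.8 and 24.1 CPM. Fcnb, which codes for a ficolin, also had 0 UMIs, and of the genes of dividing cells Mki67 had 0 in both and Top2a 0 and 2. Elane, Prtn3 and Top2a were named after their values were seen. A count of 0 allows up to 2.90 CPM in the young library and 1.46 CPM in the aged one.

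Of 17 gelatinase granule and secretory vesicle genes, 5 were higher and 2 lower, with a median of 0.07. With TMM 7 were higher and 0 lower, with a median of 0.39. Fpr1 and Fpr2, receptors for formylated bacterial peptides, stood at 170 and 270.4 CPM and at 338 and 533 CPM, ratios of 1.59 (1.36 to 1.86) and 1.58 (1.42 to 1.76). Cd14 and Mmp8 are given above, and Mmp25 was counted 9 and 30 times. Mmp8, Hp and Cybb are also members of the early neutrophil list, so these lists overlap. Mmp9 had 1.13 (1.06 to 1.21) and haptoglobin, Hp, 1.21 (1.16 to 1.25). Slpi, an inhibitor of leukocyte elastase, stood at 5442 and 3437 CPM, for a ratio of 0.632 (0.612 to 0.652). Of the 7 measured NADPH oxidase genes, which make superoxide, 0 were higher and 1 lower, with a median of −0.14 that turned to 0.18 with TMM. Cybb, the catalytic subunit, had 0.645 (0.431 to 0.969), and Cyba, its partner, 0.862 (0.816 to 0.910). The cytosolic subunits Ncf1 and Ncf4 had 1.22 and 1.12.

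Of 13 chemoattractant receptors 3 were higher and 6 lower, with a median of −0.04 that turned to 0.28 with TMM. The higher ones were Ltb4r1, Fpr1 and Fpr2. C5ar1, the receptor for complement C5a, stood at 505 and 661 CPM, for a ratio of 1.31 (1.19 to 1.44), while C5ar2, its second receptor, had 0.440 (0.302 to 0.639). Cxcr2 had 0.987 (0.917 to 1.06) and Ccr1 0.975 (0.891 to 1.07). Ccrl2, a chemerin-binding receptor, had 0.419 (0.236 to 0.737), and Ptafr, the receptor for the lipid platelet-activating factor, 0.508 (0.409 to 0.632). Cxcr4, which holds neutrophils in the marrow, had 0.525 (0.402 to 0.686), Cxcr1 0.503 (0.277 to 0.912) on 25 UMIs in each library, and Ccr2, also a monocyte marker, 0.653 (0.445 to 0.964). Ptafr and Cxcr4 were named after their values were seen, to complete the 6. Lipid attractant receptors thus stood on both sides, with Ltb4r1 higher and Ptafr lower.

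Of 22 cytokine and growth factor receptors 2 were higher and 2 lower, with a median of −0.24 that turned to 0.08 with TMM. The higher ones were Il1r2 and, on 3 and 21 UMIs, Acvrl1, at 3.52 (1.05 to 18.4). Csf3r, which maintains neutrophil production and survival, had 0.609 (0.567 to 0.653). It was found in 42.0% of young and 29.5% of aged late neutrophils at 500 UMIs, against 5.95% and 2.02% of NK and B cells. Il1rap, the shared accessory chain of interleukin 1 receptors, had 1.06 (0.903 to 1.25), and Il17ra 0.760 (0.664 to 0.872). Tnfrsf1a, the main TNF receptor, had 0.838 (0.720 to 0.977).

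Of 18 cytokines and chemokines 3 were higher and 5 lower, with a median of −0.27 that turned to 0.04 with TMM. Cxcl2, a CXCR2 ligand like Cxcl3, stood at 1541 and 2083 CPM, for a ratio of 1.35 (1.28 to 1.42), against 0.837 in neutrophils outside the rule. The chemokine Ccl4 had 1.63 (1.31 to 2.03) and Ccl9 1.5 (1.2 to 1.9), and Ccl6, the most counted chemokine, stood at 5419 and 5403 CPM. Il1b had 0.570 (0.542 to 0.599). Tgfb1 stood at 74.0 and 34 CPM, for a ratio of 0.460 (0.339 to 0.623), and Ccl5 at 79.5 and 28.9 CPM, for a ratio of 0.363 (0.265 to 0.496). Ccl5 is also made by NK cells, whose markers were lower in the aged library as given above, and their part was not tested. Osm, an interleukin 6 family cytokine, had 1.10 (0.931 to 1.30) in late neutrophils and 0.621 outside the rule.

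Of 22 danger receptors and inflammasome genes 1 was higher and 6 lower, with a median of −0.05 that turned to 0.27 with TMM. Cd14 was the higher one. Tlr2, a receptor for bacterial lipoproteins, had 1.38 (1.03 to 1.87) and Trem1, an amplifier of innate responses, 1.37 (1.14 to 1.65). Myd88, the adaptor of toll-like receptors, had 0.632 (0.517 to 0.773), Trem3 0.634 (0.560 to 0.718) and Nod1 0.379 (0.241 to 0.594). Tyrobp, the adaptor of several activating receptors, stood at 9549 and 7342 CPM, for a ratio of 0.769 (0.751 to 0.787).

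Of 19 AP-1 and immediate early genes 0 were higher and 9 lower, with a median of −0.46, and with TMM 2 were higher and 4 lower, with a median of −0.14. Junb stood at 1675 and 859 CPM, for a ratio of 0.513 (0.483 to 0.544), and Fos at 1331 and 652 CPM, for a ratio of 0.490 (0.458 to 0.525). Jund had 0.561 (0.517 to 0.609), and Dusp1, a phosphatase that turns off MAP kinases, stood at 2349 and 1468 CPM, for a ratio of 0.625 (0.595 to 0.656). Klf2, a transcription factor linked to quiescence, was on the other side at 1127 and 1527 CPM, for a ratio of 1.36 (1.28 to 1.44). Of 19 NF-kappaB feedback genes and targets 0 were higher and 7 lower, with a median of −0.47, and with TMM 0 were higher and 3 lower, with a median of −0.15. Ptgs2, the inducible prostaglandin synthase, was counted 41 times in the young library and 6 times in the aged one, a ratio of 0.073 (0.026 to 0.174), against 0.545 outside the rule. Nfkbiz, a nuclear cofactor of NF-kappaB, had 0.606 (0.478 to 0.770) and Tnfaip2 0.580 (0.514 to 0.654). Nfkbia, the inhibitor that NF-kappaB itself induces, had 1.11 (1.01 to 1.22).

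Of 34 interferon stimulated genes 3 were higher and 5 lower, with a median of −0.15 that turned to 0.17 with TMM. The 3 were Ifitm6, Ifi47 on 8 and 26 UMIs and Cmpk2 on 4 and 16 UMIs. The abundant Ifitm2 stood at 4731 and 6322 CPM, for a ratio of 1.34 (1.30 to 1.38), Ifitm1 had 1.13 (1.10 to 1.16) and Ifitm3 1.09 (1.04 to 1.14). On the lower side Oas2, a sensor of double-stranded RNA, had 0.455 (0.231 to 0.888), and the interferon-induced GTPases Igtp and Irgm1 had 0.397 (0.188 to 0.824) and 0.345 (0.145 to 0.793). The summed list, at 17049.5 and 21269.6 CPM, followed the Ifitm genes. With the 4 Ifitm genes left out, a median of 0.2% of each cell's 500 UMIs fell on the list in both libraries. That is the smallest step above 0 at this depth. Without thinning the medians were 0.209% in the young library and 0.187% in the aged one.

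Of 22 adhesion and migration genes 1 was higher and 6 lower, with a median of −0.16 that turned to 0.16 with TMM. The higher one was the tetraspanin Cd9, at 350.1 and 708 CPM, for a ratio of 2.02 (1.82 to 2.25), and it had 2.26 outside the rule. Cd44, the hyaluronan receptor, had 0.786 (0.717 to 0.863). Itga4, an integrin chain, had 0.403 (0.289 to 0.560) and Cd101, a marker of mature neutrophils, 0.454 (0.262 to 0.782) on 31 and 28 UMIs. Among 13 genes of release and ageing, 1 was higher and 4 lower, with a median of −0.07 that turned to 0.25 with TMM. Cd47, a signal against phagocytosis, had 1.30 (1.14 to 1.48) and Cd24a 0.952 (0.867 to 1.05).

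Of 21 survival and apoptosis genes 1 was higher and 4 lower, with a median of −0.22 that turned to 0.10 with TMM. Cflar, an inhibitor of death receptor signalling, had 1.58 (1.11 to 2.29). Mcl1, the factor that neutrophils need most to survive, stood at 681 and 586 CPM, for a ratio of 0.861 (0.791 to 0.937). Pmaip1, which opposes Mcl1, was counted 22 and 8 times, a ratio of 0.183 (0.070 to 0.426), and Gadd45b had 0.634 (0.493 to 0.816). Of 23 glycolysis and hypoxia genes 4 were higher and 4 lower, with a median of −0.02 that turned to 0.29 with TMM. Hilpda, a lipid droplet protein induced by low oxygen, was counted 1 time in the young library and 26 times in the aged one, a ratio of 13.1 (2.15 to 536). The glucose transporter gene Slc2a1 had 1.77 (1.29 to 2.49) and hexokinase 1, Hk1, 2.35 (1.13 to 5.48), while hexokinase 2, Hk2, had 0.369 (0.203 to 0.661). Gapdh and Pkm, the most counted of the list, had 1.05 (0.984 to 1.11) and 1.10 (1.02 to 1.18).

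Of 83 ribosomal protein genes 0 were higher and 58 lower, with a median of −0.65, and with TMM 15 were lower with a median of −0.34. Their sum was 64622 CPM in the young library and 40279.9 CPM in the aged one. In all neutrophils the same count, 58, were lower, with a median of −0.66. Near-identical pseudogenes exist for many of them.

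Cell-to-cell values at 500 UMIs showed how these levels were spread. S100a8 and S100a9 together made up a median of 27.3% of a young cell's UMIs (middle 50% of cells, 21.2% to 31.8%) and 34.2% of an aged cell's (30% to 38%). The 5th percentile was 11.2% in the young library and 24.0% in the aged one, so the young library held cells with far less of the pair. Retnlg made up 3.4% (2.0% to 5.2%) and 5.4% (3.2% to 7.4%), and ribosomal protein genes 6.4% and 4.0%. The ratio of variance to mean had medians of 1.03 and 1.02 over 671 genes. Ranked by the lower of the 2 libraries, Retnlg came first, at 6.90 and 7.47, while S100a8 stood at 9.71 and 4.75 and Wfdc17 at 5.39 and 7.71. Stfa1, at a mean of 0.08 and 0.06 UMIs, had 2.92 and 2.52, and the chemokine Cxcl2 2.64 and 1.81. Values over cells of 1 library describe that library.

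**Figure D4:**
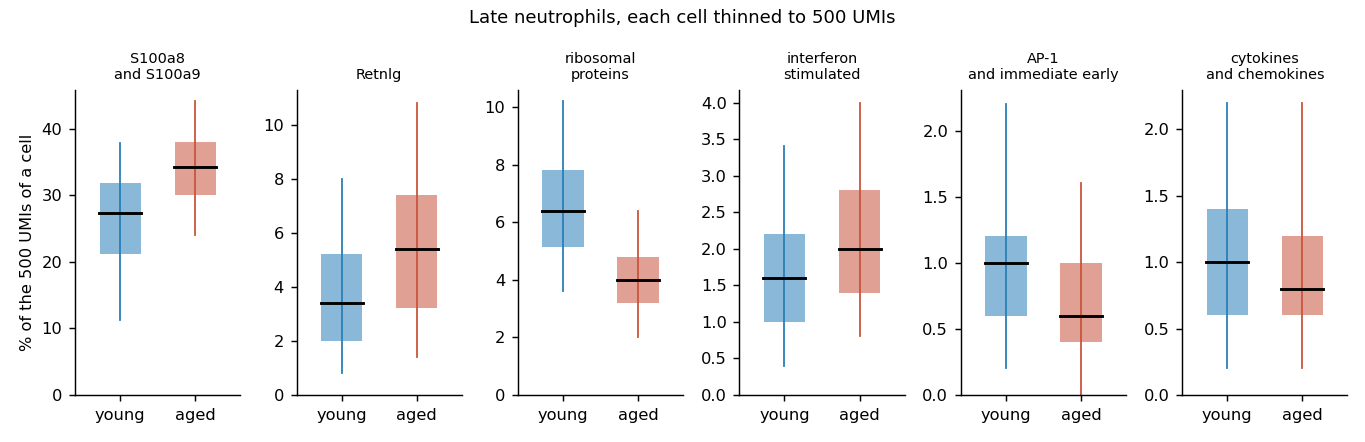
Share of each late neutrophil's UMIs, in percent after thinning to 500 UMIs, held by 6 gene sets in the young and the aged library. Boxes span the middle 50% of cells, lines the 5th to 95th percentile and black bars the median; the S100a8 and S100a9 medians are 27.3% and 34.2%.

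Neutrophils outside the rule gave the scale on which the late cells end. At 1.5-fold in both libraries, 28 of 4273 genes (0.655%) were higher and 88 (2.06%) lower in the cells with a UMI of the 3 genes. Since the rule splits the same cells, this is a description. Of 19 measured early neutrophil genes outside the rule 3 were higher there and 0 lower. Those were Cd177, a surface partner of proteinase 3, at 240 against 98.3 CPM in the young library and 270.2 against 134 CPM in the aged one, Serpinb1a, at 67.5 against 25.2 and 216 against 93.3 CPM, and Adpgk, an ADP-dependent glucokinase, at 82.1 against 23.6 and 82.8 against 35.2 CPM. Ifitm6 was 2.84-fold and 1.80-fold higher there than in late neutrophils. Il1b was lower, at 0.589 and 0.569, the 1 of the 6 markers past 1.5-fold, and Csf3r had 0.721 and 0.715. Cxcr2 had 0.884 and 0.791. The other markers were higher outside the rule in both libraries, with S100a8 at 1.22 and 1.11, S100a9 at 1.12 and 1.01 and Retnlg at 1.43 and 1.23.

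Over cells with 0, 1, 2, 3 to 5 and 6 or more UMIs of the 3 genes these levels differed by steps. Il1b went from 2282 CPM at 0 UMIs to 1611 CPM at 1 UMI and 898 CPM at 6 or more in the young library. In the aged library it went from 1299.9 to 1043 and 348 CPM. Ifitm6 went from 744 to 1151 and 3787 CPM in the young library and from 2616 to 3394 and 7175 CPM in the aged one. Retnlg went from 39210.4 to 49359.6 CPM between 0 and 1 UMI in the young library and from 56279.3 to 64318 CPM in the aged one. Median depth went from 1558.5 to 2637 UMIs and from 1755 to 2792 UMIs between the first and the last bin, so depth moved with the bins. In each of these bins Ifitm6, Retnlg and Il1r2 were higher and Il1b, Csf3r and Junb lower in the aged library. Mmp8 was higher in the aged library at 0 UMIs, 801 against 1262 CPM, and lower at 6 or more, 2923 against 2308 CPM.

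**Figure D5:**
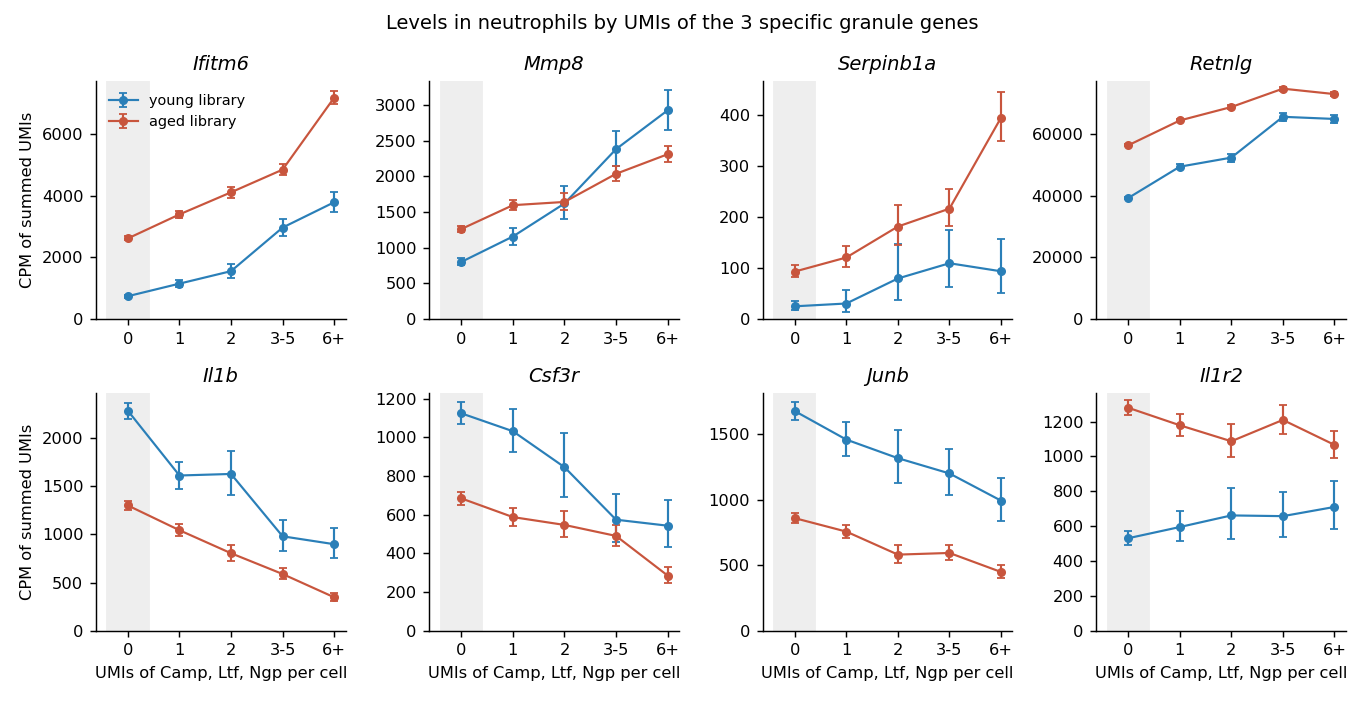
CPM of summed UMIs with 95% Poisson intervals for 8 genes in neutrophils by UMIs of Camp, Ltf and Ngp per cell, blue for young and red for aged, with the late neutrophils in the shaded bin. Ifitm6 is at 744 and 2616 CPM in the shaded bin, and Il1b at 2282 and 1299.9 CPM.

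Markers of other cell types were measured in the same sums. Erythroid markers summed to 1008.6 CPM in the young library and 287 CPM in the aged one, nearly all of it globin, and 191 young and 20 aged late neutrophils held 3 or more of their UMIs. Monocyte markers summed to 489 and 428 CPM, of which Ly6c2, also made by neutrophils, held 274 and 303 CPM, and 6 of the 8 measured were 1.5-fold lower in the aged library. Csf1r stood at 54.3 and 31.2 CPM and Fn1 at 32.3 and 13.8 CPM. Dendritic cell markers summed to 173 and 131 CPM with Xcr1, Clec9a, Zbtb46 and Ciita at 0. B cell markers summed to 10.2 and 5.53 CPM with Ms4a1, Pax5 and Fcmr at 0, and T cell markers to 18.9 and 13.8 CPM with Cd3e, Cd28, Bcl11b and Cd4 at 0. Eosinophil markers summed to 22 and 10.3 CPM. Mast cell and basophil markers summed to 735 and 743 CPM, of which Hdc, the histamine-forming enzyme that neutrophils also express, held 735 and 738 CPM, with Gata2 at 0. The part of these cells or their free RNA in the ratios was not tested beyond the shares given above without cells that held 3 such UMIs. UMIs of Hdc and Ly6c2, which neutrophils also make, counted toward those 3.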

How the data were processed

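Droplet single-cell RNA sequencing measured 1 young and 1 aged library of sorted blood myeloid cells. The deposited table holds raw UMI counts per gene and cell with the authors' population label, and all its values are whole numbers. Per the submitters' processing notes Cell Ranger 2.1.1 and the mm10 build were used. The authors' filters on cells and the way they set the labels are not stated there. Antigen receptor genes were not analysed here.

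The members, lists and rules were chosen with earlier results of these data known. Doublet scores came from scrublet in scanpy 1.11.5. Its automatic threshold called 4 young and 0 aged cells, so the highest scores were removed at 8 per 1000 cells for each 1000 cells, 27 (1.46%) and 124 (3.14%) cells. UMIs were summed over member cells per library and scaled to CPM, with exact Poisson, conditional binomial and Clopper-Pearson 95% intervals. A count of 0 was set to a floor of 3 counts per population for identity ratios, which left out the cells labelled Eryth-Neutro. A ratio needed 50 UMIs over both libraries, or 20 in lists. Named were the 6 markers, 15 identity genes, the 12 highest and 12 lowest ratios by the interval bound nearest 1 (without ribosomal protein, mitochondrial, globin, sex-linked and antigen receptor genes, pseudogenes and unnamed models), up to 6 of the most counted and 3 each way of every list, and 10 genes whose ratio shifted most from all to late neutrophils. Some genes that these rules name are not reported here. TMM factors came from edgeR 4.0.16. The ratio code was tested on simulated data. Alternatives were the scaling, doublet removal, depth, the rule's strictness and the UMI minimum, and those on shared barcodes, and 3 on the cells outside the rule, were chosen after seeing the data.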

Additional observations from a re-analysis of the deposited data

How the results depend on the processing

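The counts of genes at least 2-fold higher and lower in the aged library, 37 and 182, became 78 and 75 with TMM, 56 and 105 with S100a8, S100a9 and Retnlg left out of the total, and 64 and 90 with ratios centred on their median. The lists, at 22 higher and 61 lower, gave 50 and 31, 37 and 38, and 45 and 32 under these scalings, beside 13.7% and 10.8%, 9.8% and 14.7%, and 11.7% and 12.6% of all genes. Cells thinned to 500 UMIs gave 17 and 82, 0 UMIs also of 7 further early genes 113 lower, genes from 20 UMIs 114 and 433, and genes from 200 UMIs 13 and 41. Fewer genes were measured in the first, second and last of these. No doublet removal gave 35 and 204. The late share of young neutrophils was 62.2% from a depth of 1451 UMIs, 82.8% with up to 1 UMI of the 3 genes, 33.3% with the 7 further genes, 73.4% at 1200 UMIs and 83.6% at 500 UMIs. That of aged neutrophils was 71.7%, 23.4%, 62.0% and 76.5% for the last 4. Against late neutrophils, cells with 3 or more UMIs of the 3 genes had 57 genes higher and 232 lower in both libraries, and thinned cells 16 higher. Of 194 named genes, thinning turned the log2 ratios of Fosb (0.18), Mmp25 (−0.0097) and Pqbp1 (0.031), the 7 further genes that of Ppbp (−1.20), and all neutrophils those of Cmpk2 (−0.035) and Ncoa1 (−0.14). The cause was not tested. No paired analysis was possible because each age has 1 library. At these depths a gene under 20 UMIs over both libraries was not read.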
